A study of Mus musculus with 20 samples.

Results

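The regions described here are 1918 broad domains of H3K27me3 in mouse embryonic fibroblasts, out of 85840 merged H3K27me3 regions on chromosomes 1 to 19. They were chosen by 2 values of the H3K27me3 peak lists themselves. Peaks of the 4 H3K27me3 libraries were merged where they overlapped by 1 bp, and a merged region was kept when every library had a peak in it and it was at least 5 kb wide. Presence, width and H3K27me3 coverage of a domain are therefore descriptions, whereas the peaks of the other 3 antibodies were not used in the choice. The width of a domain is that of the merged region, and single libraries often broke it into several peaks.

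The series is a chromatin immunoprecipitation and sequencing (ChIP-seq) study of primary fibroblasts, cultured cells of mixed embryonic connective tissue, from C57BL/6 embryos (E13.5). All cells were proliferating at passage 4. The design set wild type (WT) beside the genotype Rb1L/L, called dL in the sample titles, which is homozygous for the L allele of Rb1. Rb1 encodes the retinoblastoma protein pRb, and the L allele is known to alter the surface by which pRb binds proteins with an LXCXE motif. H3K27me3 and TFIIIC-220 each had 2 libraries per genotype, and the condensin II subunits CAP-D3 and CAP-H2 had 1 per genotype. Cells for H3K27me3, CAP-D3 and CAP-H2 were fixed with the crosslinker EGS at 2 mM and then formaldehyde at 1%. For TFIIIC, in either genotype, the EGS step was left out. The labels do not say how many embryos or cultures stand behind libraries of the same kind, so the p-values rest on library-to-library spread that may be purely technical.

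H3K27me3 is the trimethyl mark on lysine 27 of histone H3. Polycomb repressive complex 2 writes it through its methyltransferase EZH2, and its subunit EED binds the mark and stimulates further writing, which lets the mark spread along the chromatin. In differentiated cells such as fibroblasts, wide domains of the mark are known to lie over developmental regulators that the cell type keeps silent, with the Hox clusters as the textbook case. Condensin II is a ring-shaped complex that compacts chromosomes; CAP-D3 and CAP-H2 are non-catalytic subunits of it. TFIIIC binds the internal promoters of tRNA genes and recruits RNA polymerase III through TFIIIB, and TFIIIC-220 is its largest subunit. Positions are given on the mm9 build, 1-based. No mm9 annotation or genome sequence was used here, so no gene is assigned to a domain and no sequence is printed.

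The 1918 domains made up 25.7% of the 7462 regions that had a peak in all 4 libraries, and 54.1% of the length of those regions. Together they spanned 17.8 Mb, or 0.72% of the autosomes. Their widths ran from 5002 to 87482 bp, with a median of 7302 bp and quartiles of 5904 and 10128 bp. Domains of at least 10 kb numbered 486 and held 45.6% of the domain length; 102 were at least 20 kb wide and 8 at least 40 kb. The widths of the members nearest the threshold were 5002, 5007 and 5008 bp, and those of the nearest regions outside it 4996, 4994 and 4993 bp. WT replicate 1 covered 38.5% to 51.2% of the 3 regions just inside and 17.2% to 63.6% of the 3 just outside. Presence in all 4 libraries removed little, since 1918 of the 1937 merged regions of at least 5 kb met it, and 12 of the others lacked a peak in WT replicate 1 alone.

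Domains were crowded together on some chromosomes. Chromosome 19 held 1.47 domains per Mb, chromosome 11 held 1.44 and chromosome 17 held 1.20. By contrast, chromosome 16 held 0.29 and chromosome 3 held 0.43. The median gap between a domain and its nearest neighbour was 64205 bp. Another domain lay within 10 kb of 29.7% of the domains and within 50 kb of 47.8%, while 11.99% were over 1 Mb from any other. Of the 5544 narrow regions, those with a peak in every H3K27me3 library and a merged width under 5 kb, 21.6% lay within 10 kb of a domain. Merging peaks up to 1 kb apart gave 4084 regions of at least 5 kb.

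The domains were patchworks of peaks, filled to a different degree in each library. WT replicate 1 covered 61.1% of the summed domain length with peaks, WT replicate 2 covered 78.5%, Rb1L/L replicate 1 covered 82.1% and Rb1L/L replicate 2 covered 89.6%. Both Rb1L/L libraries lay above both WT libraries. The means were 69.8 ± 12.3% in WT and 85.8 ± 5.31% in Rb1L/L (SD, n = 2 each), a log2 difference of 0.31 (exact permutation test, two-sided, p = 0.333). That is the smallest p that 2 libraries against 2 can give. The lists differed in the same order over the whole autosomes, where they covered 0.97%, 1.72%, 1.81% and 2.37%, and the number of reads behind a list is unknown, so that genotype and depth cannot be told apart. Divided by the autosomal share of its own list, domain coverage was 63.3 and 45.6 in WT and 45.2 and 37.8 in Rb1L/L, the reverse order. Without WT replicate 1 the log2 difference of the covered share was 0.13.

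Within a single domain the covered shares had the same order as over the summed domain length. The median domain was covered to 57.8% in WT replicate 1, 78.1% in WT replicate 2, 81.7% in Rb1L/L replicate 1 and 90.4% in Rb1L/L replicate 2. WT replicate 1 was the lowest of the 4 libraries in 1633 domains, and Rb1L/L replicate 2 the highest in 1288. The median domain consisted of 3 peaks in each library except Rb1L/L replicate 2, where it consisted of 2. A single peak stood in the domain in 9.80% and 12.3% of cases in the WT libraries and in 14.9% and 23.6% in the Rb1L/L libraries. Only 17 domains were covered to at least 90% in all 4 libraries. At base level, all 4 libraries had a peak over 49.2% of the domain length, 3 of them over 23.4%, 2 over 16.9% and 1 over 10.5%.

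**Figure D1:**
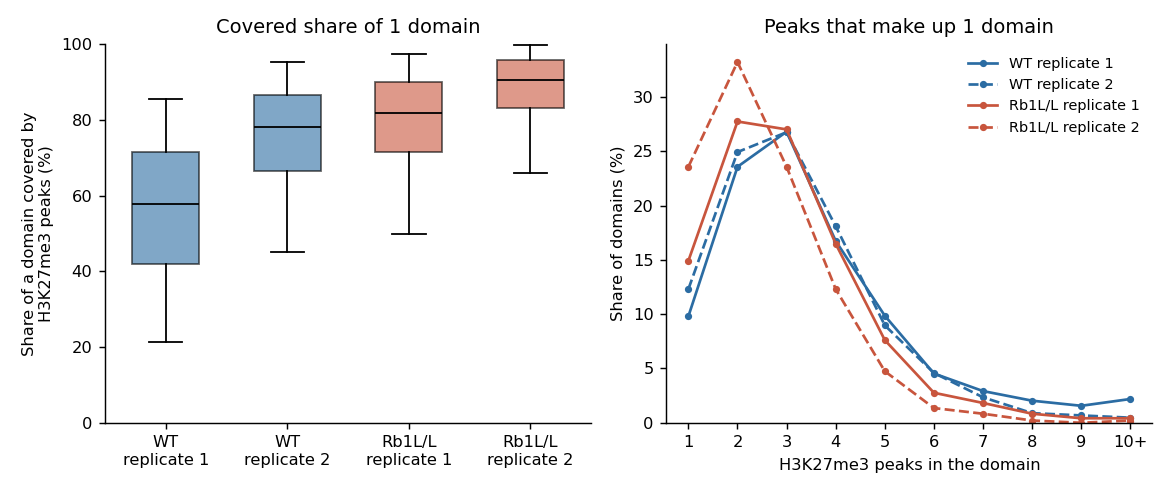
Left, the share of each of the 1918 domains covered by H3K27me3 peaks (%), by library; boxes give the median and quartiles and whiskers the 5th and 95th percentiles over domains. Right, the share of domains (%) against the number of H3K27me3 peaks in the domain, by library, with 10 and more pooled. The median covered share rises from 57.8% in WT replicate 1 to 90.4% in Rb1L/L replicate 2.

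Wide domains were filled more completely than those just over the threshold. In domains of 5 to 7.5 kb, the peaks of WT replicate 1 covered 50.0% of the length, those of WT replicate 2 covered 70.9%, and those of the Rb1L/L libraries 74.4% and 85.5%. In the 102 domains of at least 20 kb these shares were 79.8%, 90.5%, 93.4% and 95.7%. Width and coverage come from the same peaks, and coverage cannot exceed 100%, so nothing is read from the smaller gaps between libraries in the widest class.

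The widest domain, 87482 bp on chromosome 15 from 102724296 to 102811777, was covered to 85.9% and 95.03% in the WT libraries and to 98.0% and 96.9% in the Rb1L/L libraries. WT replicate 1 split it into 22 peaks, WT replicate 2 into 9, and the Rb1L/L libraries into 8 and 5, and the widest single peak in it grew from 14983 bp in WT replicate 1 to 74797 bp in Rb1L/L replicate 2. The next was on chromosome 6 from 52171272 to 52232922, 61651 bp wide, with 16 and 14 peaks in WT and 7 and 4 in Rb1L/L. On chromosome 2 from 74482607 to 74539808, 57202 bp were covered to 88.3% and 96.2% in WT and to 96.7% and 99.6% in Rb1L/L. In these 3 domains every library but WT replicate 1 was over 90% covered, and the libraries differed in how many peaks they cut them into.

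Of the 8 widest, the next were on chromosome 1 (78165029 to 78218473) and chromosome 11 (96024003 to 96074014). They were followed by domains on chromosome 19 (43653080 to 43701098), chromosome 14 (63845776 to 63892048) and chromosome 2 (105493411 to 105533728). In these 5, coverage in WT replicate 1 ran from 63.3% on chromosome 1 to 90.02% on chromosome 2, and in the other 3 libraries from 88.2% to 99.1%. In all 8 of the widest domains WT replicate 1 had the lowest coverage. The domain on chromosome 19 carried no peak of TFIIIC, CAP-D3 or CAP-H2 in any list. That on chromosome 1 carried 1 TFIIIC peak in Rb1L/L replicate 2, 2 CAP-H2 peaks in Rb1L/L and none of the other lists' peaks.

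**Figure D2:**
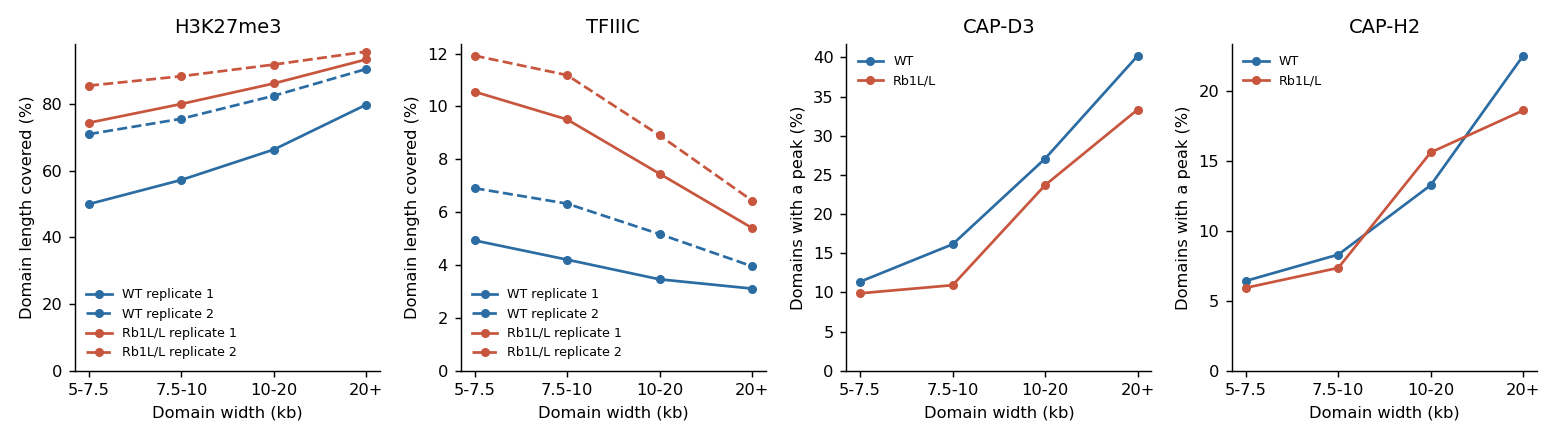
Domains in 4 classes of width (kb; solid lines, replicate 1; dashed lines, replicate 2). The 2 left panels give the share of the domain length covered by H3K27me3 or TFIIIC peaks (%) in each library, and the 2 right panels the share of domains with a CAP-D3 or CAP-H2 peak (%), 1 library per genotype. H3K27me3 coverage rises with width to between 79.8% and 95.7%, while TFIIIC coverage falls in every library.

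The authors' scores rank peaks within a list, and part of the domains held a peak with a very high score. The best peak of a domain is often the highest of several, and narrow regions were not compared by score. Many peaks are tied at a score of 3100, and the best peak of a domain reached at least this value in 26.7% and 40.6% of domains in the WT libraries and in 57.6% and 50.5% in the Rb1L/L libraries. In 450 domains it did so in all 4 libraries. The widest of these 450 was the domain on chromosome 6 described above, and the fifth was on chromosome 9 (91263042 to 91302941), covered to between 87.3% and 99.4%. The widest domain of all was not among them: its best peak scored 1285 in Rb1L/L replicate 2 against 3100 in the other 3 libraries.

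No domain passed the test for a change of its H3K27me3 covered length between genotypes. The covered length of each region was compared as log2(bp + 200), centred on the median region of its library, with limma over all 7462 regions. None passed a Benjamini-Hochberg adjusted p of 0.05 (0% of all regions; the smallest adjusted p was 0.328), and 160 of 1918 domains (8.34%) had an unadjusted p under 0.05 against 5.8% of all regions. Of these 160, 74 were higher in Rb1L/L (3.86% of domains, 2.1% of all regions) and 86 lower (4.48% and 3.7%). The median log2 difference was −0.17 over domains and −0.14 over all regions. The direction rests on the centring: with covered lengths as deposited the medians were 0.32 and 0.35, and 1031 domains (53.8%) had both Rb1L/L libraries above both WT libraries, against 43.1% of all regions, and 4 below (0.209% against 2.41%). An unadjusted p under 0.05 was then reached by 241 domains (12.6%), against 8.64% of all regions; all 241 were higher (8.48% of all regions) and none lower (0.161%). Centred, 166 domains (8.65%) had both Rb1L/L libraries above both WT libraries, against 11.5% of all regions, and 706 (36.8%) below, against 27.1%. The count of 0 also rests on single WT libraries, since limma called 276 domains (14.4%, against 5% of all regions) without WT replicate 2 and 19 (0.991% against 0.281%) without WT replicate 1. With peaks merged up to 1 kb apart it called 1 of 4084 domains (0.0245% against 0.0138%). With the replicate number as a block it called 0, and 443 domains had an unadjusted p under 0.05 (23.1% against 10.2%).

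The domains with the smallest p toward Rb1L/L were sparsely covered in WT replicate 1 and mostly covered in both Rb1L/L libraries. Shares are given as deposited, and log2 differences are those of centred lengths. On chromosome 2 from 34738679 to 34744135, H3K27me3 peaks covered 14.8% and 23.8% in WT and 80.2% and 96.5% in Rb1L/L, a log2 difference of 1.54 ± 0.39 (SE; limma adjusted p 0.328). On chromosome 5 from 110982893 to 110991320, WT had 14.5% and 28.8% against 80.5% and 63.7% (1.20 ± 0.31, limma adjusted p 0.328). On chromosome 11 from 101236342 to 101242455 they were 14.0% and 35.3% against 87.2% and 81.6% (1.27 ± 0.34, limma adjusted p 0.336). In these 3 domains both Rb1L/L libraries exceeded both WT libraries by a wide margin, although none passed the correction. The fourth, on chromosome 18 from 36334289 to 36342724, had 16.1% and 60.2% in WT and 85.9% and 92.2% in Rb1L/L.

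Of those with the smallest p toward WT, 1 had libraries that did not overlap in covered share. These shares are as deposited, whereas rank and log2 difference come from centred lengths, on which the overlap can differ. On chromosome 16 from 95804343 to 95809736, the peaks covered 71.9% and 90.4% in WT and 57.8% and 57.4% in Rb1L/L (log2 difference −0.95 ± 0.29, limma adjusted p 0.455). The domain with the smallest p, on chromosome 14 from 46741698 to 46748328, had 26.0% and 86.6% in WT. Its Rb1L/L values of 9.43% and 58.6% overlapped these. The others were on chromosome 1 (78144325 to 78151148) and chromosome 4 (47519679 to 47527437). Their share as deposited was low in Rb1L/L replicate 1 (16.8% and 15.2%) and not in Rb1L/L replicate 2 (71.4% and 74.2%).

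TFIIIC peaks covered a smaller share of the domains than of any other place measured. They covered 4.06% and 5.80% of the domain length in the WT libraries and 8.59% and 9.99% in the Rb1L/L libraries. In the narrow H3K27me3 regions the shares were 6.23%, 9.64%, 14.4% and 15.9% in the same order. Coverage was lower in domains than in narrow regions in 4 of 4 libraries, with a mean log2 difference of −0.69 (exact permutation test over libraries, two-sided, p = 0.125, the smallest that 4 libraries allow). Counted by midpoint, there were 56.3, 78.8, 106 and 124 TFIIIC peaks per Mb of domain, against 89.7, 133, 178 and 192 per Mb of narrow region. Set against all autosomes instead, the number of peaks per Mb in domains was 0.71, 0.84, 0.92 and 1.05 times as high, so that Rb1L/L replicate 2 was not below the autosomes by this measure. The wider the domain, the lower the TFIIIC coverage: from domains of 5 to 7.5 kb to those of at least 20 kb it went from 4.93% to 3.11% and from 6.91% to 3.95% in WT, and from 10.6% to 5.40% and from 11.9% to 6.44% in Rb1L/L.

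The chromatin around the domains was rich in TFIIIC peaks. At 15 to 20 kb outside a domain edge, TFIIIC peaks covered 9.67% and 14.4% of the bases in WT and 21.0% and 21.6% in Rb1L/L, which was 1.63 to 2.01 times the autosomal share of the same list. Coverage fell toward the domain, to 5.31%, 8.07%, 12.1% and 13.2% in the last kb before the edge. From 1 to 2.5 kb inside it was 4.52%, 6.42%, 10.2% and 11.3%. Most of the fall lay outside the edge that the H3K27me3 peaks set. Bases within another domain were left out of the flanks.

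**Figure D3:**
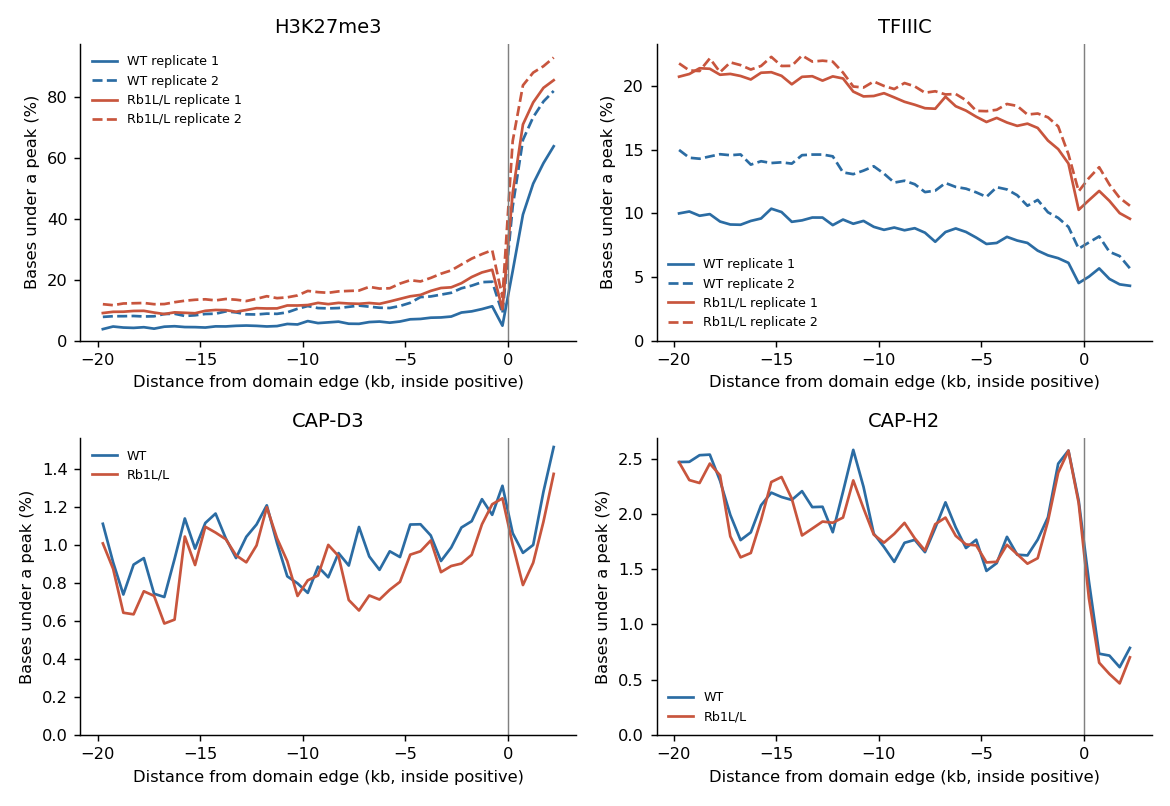
Share of bases under a peak (%) against the distance from a domain edge (kb, positive inside), averaged over both edges of 1918 domains in bins of 500 bp, for each of the 4 antibodies; lines are libraries (solid, replicate 1; dashed, replicate 2). H3K27me3 rises inside by construction, and its dip just outside also comes from the merging. TFIIIC and CAP-H2 fall from outside to inside. CAP-D3 is 0.91% and 0.78% at 15 to 20 kb outside, 1.23% in both genotypes in the last kb outside, and 1.26% and 1.13% from 1 to 2.5 kb inside.

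TFIIIC coverage of the domains was higher in both Rb1L/L libraries than in both WT libraries, as it was over the whole autosomes. The means were 4.93 ± 1.23% in WT and 9.29 ± 0.99% in Rb1L/L (SD, n = 2), a log2 difference of 0.93 (exact permutation p = 0.333, the smallest possible). The autosomal means were 6.73 ± 1.10% and 10.7 ± 0.10%. Divided by the autosomal share of its own list, domain coverage was 0.68 and 0.77 in WT and 0.81 and 0.93 in Rb1L/L, a log2 difference of 0.26 (exact permutation p 0.333). Divided by the share at 15 to 20 kb from the edge instead, it was 0.42 and 0.40 in WT and 0.41 and 0.46 in Rb1L/L, and these values overlapped between genotypes. Domain coverage below the autosomal share was therefore seen in 4 of 4 libraries, and the gap to the surroundings had no order by genotype.

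**Figure D4:**
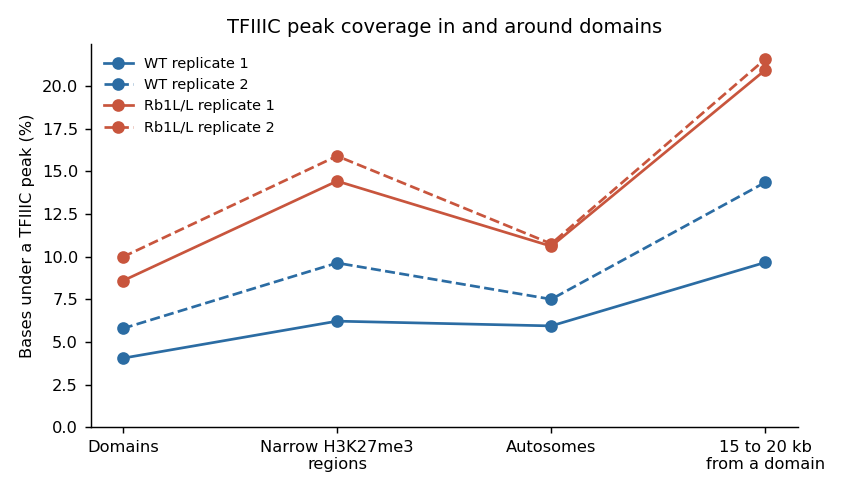
Share of bases under a TFIIIC peak (%) in domains, in narrow H3K27me3 regions, over the autosomes and at 15 to 20 kb from a domain edge; each line joins the values of 1 library (solid, replicate 1; dashed, replicate 2). Every library is lowest in the domains, from 4.06% to 9.99%, and highest in the flanks, from 9.67% to 21.6%.

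At the level of single domains, 739 and 952 of 1918 held a TFIIIC peak in the WT libraries and 1110 and 1183 in the Rb1L/L libraries. All 4 libraries had one in 391 domains (20.4%) and none of them in 375 (19.6%). Both Rb1L/L and no WT library had one in 137 domains (7.14%), and both WT and no Rb1L/L library in 28 (1.46%). In the narrow regions these last shares were 7.94% and 0.92%.

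No domain passed the test for a change of its TFIIIC covered length. The limma test covered 3763 regions with TFIIIC peaks in at least 2 libraries, among them 1216 of the 1918 domains. None of these passed (0% of all regions tested; smallest adjusted p 0.892), and 72 domains (5.92%) had an unadjusted p under 0.05 against 4.17% of all regions. Of these, 17 were higher in Rb1L/L (1.4%, against 0.478% of all regions) and 55 lower (4.52% against 3.69%). Both Rb1L/L libraries were above both WT libraries in 191 domains (15.7% against 15.6%) and below in 203 (16.7% against 18.7%). Centring decided the direction: the median region of WT replicate 1 was at 7.95 on the log2 scale, near the pseudocount, and those of the other 3 libraries at 9.60 to 9.96. The median log2 difference over the domains tested was −0.26 centred and 0.87 as deposited, beside −0.29 and 0.84 over all regions. With no filter the median region of each library held no TFIIIC peak, so centring removed no difference between the lists. The median log2 difference was then 0.48 over all 1918 domains and 0.046 over all 7462 regions, in effect as deposited. As deposited, 257 of the domains tested (21.1%, as of all regions) had an unadjusted p under 0.05, 229 higher (18.8% against 19%) and 28 lower (2.3% against 2.13%), and 548 had both Rb1L/L libraries above both WT libraries (45.1% against 44%) and 59 below (4.85% against 4.44%). A domain that passed the filter only through 1 genotype had to differ, so these counts are descriptions.

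Of the 8 domains with the smallest p for TFIIIC, 4 per direction, all but a pair had peaks in both libraries of 1 genotype and in neither library of the other. Such domains passed the filter only through the genotype with peaks and were then ranked by p, so this pattern is a description. On chromosome 5 from 53599206 to 53609077, TFIIIC peaks covered 7.66% and 17.2% in WT and were absent from both Rb1L/L lists, while H3K27me3 covered 48.65% and 67.7% in WT and 75.3% and 86.0% in Rb1L/L. On chromosome 2 from 33391171 to 33398150, TFIIIC covered 19.6% and 11.8% in WT and was absent from both Rb1L/L lists. The domain on chromosome 2 from 158489535 to 158497300 had 8.18% and 18.3% in WT and none in Rb1L/L, together with a CAP-D3 peak tied at the score of 3100 in both genotypes. In the other direction, chromosome 17 from 46578375 to 46584310 had no TFIIIC peak in WT and 59.4% and 25.3% in Rb1L/L, and chromosome 17 from 35337681 to 35343873 had none in WT and 59.6% and 23.1% in Rb1L/L. On chromosome 4 from 116967390 to 116984377, none in WT stood against 12.1% and 17.1%. The exceptions were on chromosome 11. The domain from 119447673 to 119457462 had 18.2% and 17.7% in WT, none in Rb1L/L replicate 1 and 14.1% in Rb1L/L replicate 2. That from 115191328 to 115201933 had none in WT replicate 1, 6.52% in WT replicate 2 and 25.6% and 48.6% in Rb1L/L. None of the 8 passed the correction (limma adjusted p 0.892 for each).

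Set against the rest of the autosomes, the subunits of condensin II had opposite peak densities in the domains. CAP-D3 had 347 peaks in the domains of WT cells and 265 in those of Rb1L/L cells, or 19.5 per Mb (95% exact Poisson interval 17.5 to 21.7) and 14.9 per Mb (13.2 to 16.8). The rest of the autosomes held 6.86 and 5.16 CAP-D3 peaks per Mb. CAP-H2 had 181 and 167 peaks in the domains, or 10.2 per Mb (8.74 to 11.8) and 9.39 per Mb (8.02 to 10.9), where the rest of the autosomes held 17.1 and 17.3. So CAP-D3 peaks were denser inside the domains than over the rest of the autosomes and CAP-H2 peaks sparser, in both genotypes. This was not particular to broad domains. The narrow H3K27me3 regions held 23.0 and 18.5 CAP-D3 peaks per Mb and 12.1 and 11.9 CAP-H2 peaks per Mb in WT and Rb1L/L. These subunits have a single library in each genotype, so no replicate spread is known, and intervals cover counting error only. Against the narrow regions the domains held somewhat fewer peaks of both subunits, but the sign for CAP-H2 turned at a width of at least 10 kb, to 0.069 in WT and 0.20 in Rb1L/L, where CAP-D3 in WT was at −0.015. At 5 kb the log2 ratio of CAP-D3 peaks per Mb was −0.24 (95% interval −0.46 to −0.02) in WT and −0.32 (−0.56 to −0.07) in Rb1L/L, and that of CAP-H2 was −0.25 (−0.56 to 0.05) and −0.34 (−0.66 to −0.03).

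Coverage by CAP-D3, and not by CAP-H2, was higher on the bases that all H3K27me3 libraries shared. Where all 4 H3K27me3 libraries had a peak, CAP-D3 peaks covered 1.96% of the bases in WT and 1.67% in Rb1L/L, against 1.01% and 0.91% where 1 to 3 libraries did. CAP-H2 peaks covered 0.90% and 0.83% of the former and 0.95% and 0.88% of the latter. TFIIIC peaks covered less of the former in each library, 3.69% against 4.42% and 4.96% against 6.61% in WT, and 7.31% against 9.84% and 8.75% against 11.2% in Rb1L/L. Over bases with 1, 2, 3 and 4 H3K27me3 libraries, CAP-H2 coverage had no steady order. It was 1.29%, 0.92%, 0.81% and 0.90% in WT and 1.23%, 0.84%, 0.75% and 0.83% in Rb1L/L. CAP-H2 dropped at the domain edge, from 2.35% and 2.34% in the last kb outside to 0.71% and 0.57% from 1 to 2.5 kb inside. CAP-D3 had no step up there: it was 1.23% in both genotypes in the last kb outside. In the first kb inside CAP-D3 was 1.01% and 0.89%, and from 1 to 2.5 kb inside 1.26% and 1.13%.

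CAP-D3 peaks inside the domains mostly stood without CAP-H2. Of the 347 WT peaks, 47 overlapped a WT CAP-H2 peak (13.54%, 95% exact binomial interval 10.1 to 17.6), against 57.5% (56.7 to 58.2) of the WT CAP-D3 peaks outside both domains and narrow regions. Of the 265 Rb1L/L peaks, 40 did (15.1%, 11.01 to 19.98), against 68.2% (67.4 to 69.1). CAP-D3 peaks in the narrow regions lay in between, at 32.8% and 37.1%. From the side of CAP-H2 the share was no lower inside: 23.2% (17.3 to 30.04) of the CAP-H2 peaks in WT domains and 24.0% (17.7 to 31.2) in Rb1L/L domains overlapped CAP-D3, against 21.7% and 19.7% elsewhere. The median CAP-D3 score was 486 inside the domains and 351 elsewhere in WT, and 820 and 731 in Rb1L/L, while 26.2% and 22.3% of the peaks inside were in the top 25% of their list. The median CAP-H2 score was 115 inside and 140 elsewhere in WT, and 158 and 194 in Rb1L/L. Medians in the narrow regions were above both, at 547 and 950 for CAP-D3 and 160 and 266 for CAP-H2 in WT and Rb1L/L. There, 29.3% and 25.4% of the CAP-D3 peaks were in the top 25%. In the top 25% of the WT list by score, 20.9% of the CAP-D3 peaks inside domains overlapped CAP-H2 and 77.1% of those elsewhere, and in Rb1L/L 23.7% and 79.1%. CAP-H2 peaks were also sparser and of lower median score inside the domains, and their part in these shares was not tested.

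CAP-D3 peaks inside the domains also rarely overlapped TFIIIC. In WT, 5.76% overlapped a peak of TFIIIC replicate 1 and 9.80% one of replicate 2, against 29.6% and 27.5% elsewhere. In Rb1L/L cells they were 6.04% and 9.06% inside and 21.7% and 20.8% elsewhere. In both genotypes the shares inside were under 10% while the narrow regions had 27.6% to 33.9%. TFIIIC and condensin II come from differently fixed chromatin, and the part of fixation in these shares was not tested.

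**Figure D5:**
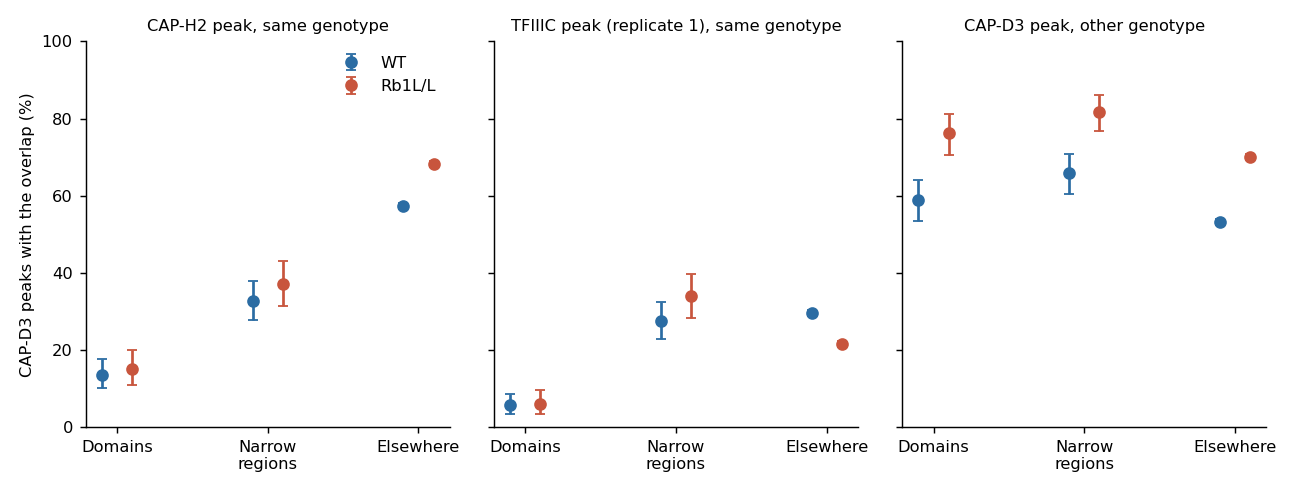
Share of CAP-D3 peaks (%) that overlap a CAP-H2 peak of the same genotype (left), a peak of TFIIIC replicate 1 of the same genotype (middle) or a CAP-D3 peak of the other genotype (right), for peaks in domains, in narrow H3K27me3 regions and elsewhere on the autosomes. Points are single libraries and bars are 95% exact binomial intervals. In domains the shares with CAP-H2 are 13.54% and 15.1%, against 57.5% and 68.2% elsewhere.

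Most CAP-D3 peaks in the domains were found in both genotypes, and the differences to the rest of the list given next were not tested. Of the WT peaks in domains, 58.8% (53.4 to 64.0) overlapped an Rb1L/L CAP-D3 peak, against 53.2% (52.5 to 54.0) elsewhere. In the other direction the shares were 76.2% (70.6 to 81.2) and 70.1% (69.3 to 70.9). CAP-D3 peaks in the narrow H3K27me3 regions had the highest shares, at 65.8% and 81.8%, so the sharing was not particular to domains. For CAP-H2 the shares inside were lower than elsewhere, at 50.8% (43.3 to 58.3) against 71.4% (71.0 to 71.8) from WT and 54.5% (46.6 to 62.2) against 71.3% (70.8 to 71.7) from Rb1L/L. CAP-H2 peaks in the narrow regions had 68.9% and 70.6%. The CAP-H2 peaks inside the domains also ranked lower in their lists: 12.7% and 13.2% of them were in the top 25% of their list by score. Of those in the narrow regions, 38.3% and 41.7% were.

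By domain, 213 of 1918 (11.1%) held CAP-D3 peaks in both genotypes, 115 in WT alone (6.00%) and 58 in Rb1L/L alone (3.02%). In the narrow regions 2.60% had CAP-D3 in WT alone and 1.23% in Rb1L/L alone, and the WT list was the longer, with 17576 peaks against 13233. CAP-H2 was present in both genotypes in 105 domains (5.47%), in WT alone in 69 and in Rb1L/L alone in 65. Only 38 domains held both subunits in both genotypes (1.98%, against 1.75% of narrow regions). CAP-D3 in both and CAP-H2 in neither was found in 135 (7.04% against 2.72%). No condensin II peak was found in 1412 domains (73.6% against 88.2%), and no peak of any of the other antibodies in 253 (13.2% against 30.7%). The narrow regions, with a median width of 2600 bp, have less room for a peak. Presence rose with width: CAP-D3 was found in 11.4% of WT domains of 5 to 7.5 kb and in 40.2% of those of at least 20 kb, and CAP-H2 in 6.43% and 22.5%. A wider region has more room for a peak, and per base CAP-D3 coverage had no such order, at 1.41%, 1.48%, 1.65% and 1.30% from the narrowest to the widest class.

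The domains richest in condensin II were of unlike kinds. That on chromosome 1 from 172997789 to 173012928 held 4 and 3 CAP-D3 peaks and 4 and 5 CAP-H2 peaks in WT and Rb1L/L, and TFIIIC peaks covered 72.5% to 93.8% of it in the 4 libraries. It was 1 of 9 domains with a peak in all 12 lists. Leaving these 9 out, 11.4% of WT and 12.6% of Rb1L/L CAP-D3 peaks in domains overlapped CAP-H2. The domain on chromosome 15 from 102833033 to 102849139 held 1 CAP-D3 peak per genotype (scores 1375 and 2129) beside 5 and 7 CAP-H2 peaks. Chromosome 11 from 96160057 to 96185092 held 7 and 4 CAP-H2 peaks and no CAP-D3 peak. On chromosome 3 from 30407737 to 30417468, the CAP-D3 peaks, 3 and 2 in number, reached scores of 3056 and 3100, far above the medians of their lists. The best CAP-H2 peaks scored 108 and 126, below the medians of theirs, and TFIIIC was absent from all 4 lists.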

How the data were processed

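The 12 deposited peak lists were used, 1 per immunoprecipitated library; the 8 input samples have no list here. The submitters' processing notes name Bowtie2 2.3.0, MACS 1.4.0rc2 and the mm9 build; settings are not given in the sources used here. The authors' deposited score per peak has no column name; MACS of this version usually writes a multiple of a −log10 p-value there. It was used for ranks, ties and filters inside 1 list. Each list belongs to 1 library. By the input titles in the labels, CAP-D3 and CAP-H2 had the same input as H3K27me3 replicate 2 in WT and as H3K27me3 replicate 1 in Rb1L/L.

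Covered length is the number of bases under a peak. The autosomal span runs to the last peak of any list, 2472 Mb in all. Lists held 13233 to 301874 peaks. Read depth is unknown. Libraries were compared with exact permutation tests and regions with limma 3.58.1 (R 4.3.3; variance trend, pseudocount 200 bp), which was tested on simulated data and there missed most of the smaller TFIIIC changes. Shares have exact binomial (Clopper-Pearson) and counts exact Poisson 95% intervals.

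The domains, measures and lists were chosen with earlier results of these data known. Domains were named by a rule: the 8 widest; the 5 with the highest lowest score; the 4 per direction with the smallest limma p for H3K27me3 and for TFIIIC; the 4 with the most condensin II peaks; and those next to the width threshold. Only the leading ones of some sets are described. The gene and marker lists planned for an mm9 annotation were not used. Alternatives were other scores, merging gaps, widths, top-scoring peaks, pseudocounts, filters and centring, left-out libraries and a replicate block.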

Additional observations from a re-analysis of the deposited data

Results flagged for a closer look

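Regions outside chromosomes 1 to 19 entered none of the comparisons. On chromosome X, 14 merged regions had an H3K27me3 peak in all 4 libraries and a width of at least 5 kb. They are listed because they lie outside the regions compared, and no expected number is known. Chromosome Y had 0 such regions.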

How the results depend on the processing

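The number of domains was 4084 with peaks merged up to 1 kb apart, 4010 at a width of at least 3 kb and 486 at 10 kb. It was 1296 to 1824 when 1 library was left out of the rule. The log2 difference of H3K27me3 coverage stayed above 0 in every setting run (0.13 to 0.49 with a library left out). None of these settings divided it by the autosomal share, on which both Rb1L/L libraries lay below both WT libraries. That of TFIIIC also stayed above 0 (0.68 to 1.19 with a library left out, 0.65 with equal numbers of top-scoring peaks). The TFIIIC difference to narrow regions stayed below 0 (−0.33 to −0.84 over all settings). None of these designs can pass a threshold of 0.05. The limma test of H3K27me3 called 0 to 276 domains with a library left out (0 to 373 of all 7462 regions) and 1 with peaks merged up to 1 kb apart (1 of all 7222); that of TFIIIC called 0 in every setting. Members found without WT replicate 1 gave 0.31 for H3K27me3, and TFIIIC relative to the autosomes gave 0.26; both settings were chosen after seeing the data. A genotype with 1 library left is assumed to vary like the other.

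For the condensin II ratios to narrow regions, merging up to 1 kb gave −0.53 and −0.78 for CAP-D3 in WT and Rb1L/L and −0.66 and −0.76 for CAP-H2. A width of 3 kb gave −0.78 and −0.79 for CAP-H2. A width of 10 kb gave −0.015 for CAP-D3 in WT, and 0.069 and 0.20 for CAP-H2, so that the sign of the CAP-H2 ratio rests on the width; the cause was not tested.

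Libraries with the same number are not said to share a culture. Their deviations correlated at 0.10 for H3K27me3 and 0.03 for TFIIIC over all regions, and at 0.25 and 0.01 over the domains. With the replicate number as a block, limma still called 0 domains for either antibody. An unadjusted limma p under 0.05 was reached by 443 domains for H3K27me3 in place of 160, and by 58 for TFIIIC in place of 72. Both coverage differences kept their values of 0.31 and 0.93. Their exact permutation p was 0.5, the smallest that the blocked design can give.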
